A study of Mus musculus with 6 samples.

Results

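Cortical neurons kept at 42 °C for 60 min were compared with neurons kept at 37 °C for the same time, across all genes with enough signal to be read in both states. The comparison holds 12120 of the 55538 genes in the deposited table, namely those whose mean over the 2 heated and the 2 control libraries reached 5 in the authors' TPM-like normalised signal. At the edge of this rule, the predicted gene Gm41219 was inside with a mean of 5.00, and Gm48130 was outside with a mean of 4.996. The cells were cortical, from day 14.5 embryos of C57BL/6 mice, carried no engineered allele, and were grown in DMEM with 10% fetal bovine serum and antibiotics. They rested for 2 h at 37 °C before the experiment, so both groups had been dissociated only hours earlier. Total RNA depleted of ribosomal RNA was sequenced in single 100 bp reads. The heated group and the control group each had 2 libraries, called s1 and s2 after the table's columns, and a further pair of libraries from 15 min at 42 °C is set beside them. The labels do not say whether the libraries of a group came from separate cultures or animals, so p-values measure only the spread between these samples, which may be technical. RNA recovered with ribosomes was not analysed here.

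Heat unfolds proteins, and cells answer through heat shock factor 1, which leaves its chaperone partners, forms trimers and binds heat shock elements in the promoters of chaperone genes. The chaperones that follow include Hsp70, which holds and refolds exposed protein stretches, Hsp40 proteins, which bring it clients, Hsp110, which resets it, Hsp90 with its co-chaperones, the small heat shock proteins, and the chaperonins that fold proteins in a closed chamber. In the same period RNA polymerase II is known to be released into fewer of the other genes. The embryonic cortex holds dividing progenitors, intermediate progenitors and new neurons, and these states are set by proneural factors, Notch signals and other regulators whose transcripts turn over quickly.

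Markers of neurons and of progenitors were present in all 4 libraries, which the labels call neurons. The 25 pan-neuronal and axonal genes had summed signals of 4062 and 5079 in control, against 5189.7 and 4995 at 60 min, and 24 of them reached the mean of 5. The 19 progenitor and radial glia genes, all in the set, summed to 3146 and 3465 in control and to 3742 and 3176 at 60 min. Some other lineages were low by the number of genes reaching the mean of 5. These were 1 of 11 oligodendrocyte, 1 of 19 microglial and macrophage, 1 of 19 endothelial and mural and 1 of 12 fibroblast genes. The mean of 5 was reached by 7 of 12 astrocyte, 6 of 15 interneuron lineage and 6 of 11 erythroid genes. The control libraries differed from each other more than the heated ones did, with an SD over genes of 0.82 on the log2 scale for s1 minus s2 in control and of 0.52 at 60 min. In bulk RNA, fewer cells of a type and less RNA per cell cannot be told apart. All log2 values below are on the scale log2(value + 1), which understates the change of low genes.

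Very few genes passed the test. limma was fitted to 21954 genes in all 6 libraries, and at a Benjamini-Hochberg adjusted p of 0.05 it called 6 genes higher (0.0273% of those tested) and 3 lower (0.0137%), or 0.041% in all. All 9 are in the set, of which they make up 0.0743%. They were Hspa1a, Hspa1b and Hsph1, the small nucleolar RNA Rnu3a and the unclassified loci Gm10616 and Gm48565 among the genes that rose, and Btg2, Snora57 and a gene without a symbol among those that fell. The calls depend on which libraries enter the fit, since 2 of the 9 passed in a fit of the 4 libraries compared, without the 15 min pair. They also changed with the library and group left out, where a lone library stays in that group. The differences themselves stayed close when a 60 min library was dropped, at 7.77 and 7.86 for Hspa1b and −2.04 and −1.99 for Btg2. At an unadjusted p under 0.05 there were 429 genes higher (3.54%) and 847 lower (6.99%). With 2 libraries a side an exact test cannot go below p = 0.33, so the other genes are described by whether the groups overlap.

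Each gene was therefore set against control s1 and control s2 singly. If the libraries did not differ by group, a share of 0.33 of genes would still be expected not to overlap, split evenly between higher and lower. A lack of overlap alone thus does not mark a gene as changed by heat. In 1986 genes (16.4%) both heated libraries were above both controls, and in 2470 (20.4%) both were below both. This split depends on scaling: with median-of-ratios factors, which scale each library by its median ratio to the mean library, taken over all genes above 0 (1.51 for control s1 and 0.87 to 1.02 for the others), the shares were 15.0% higher and 5.22% lower, and the median change of the set moved from −0.06 to 0.13. A stricter measure was the smallest of the 4 differences between a heated and a control library, and a gene is called at least 1 apart when that difference was 1 or more on the log2 scale, a 2-fold difference of value + 1. By this measure 51 genes (0.421%) were higher and 74 (0.611%) were lower.

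The choice of control mattered more for the genes that were lower. Against control s1 alone, 130 genes (1.07%) were at least 1 higher in both heated libraries and 558 (4.6%) at least 1 lower. Against control s2 alone, the counts were 130 (1.07%) and 370 (3.05%). The 51 genes that met the measure against both made up 39.2% of the higher genes of either control. The 74 lower genes made up 13.3% of those below control s1 and 20% of those below control s2.

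**Figure D1:**
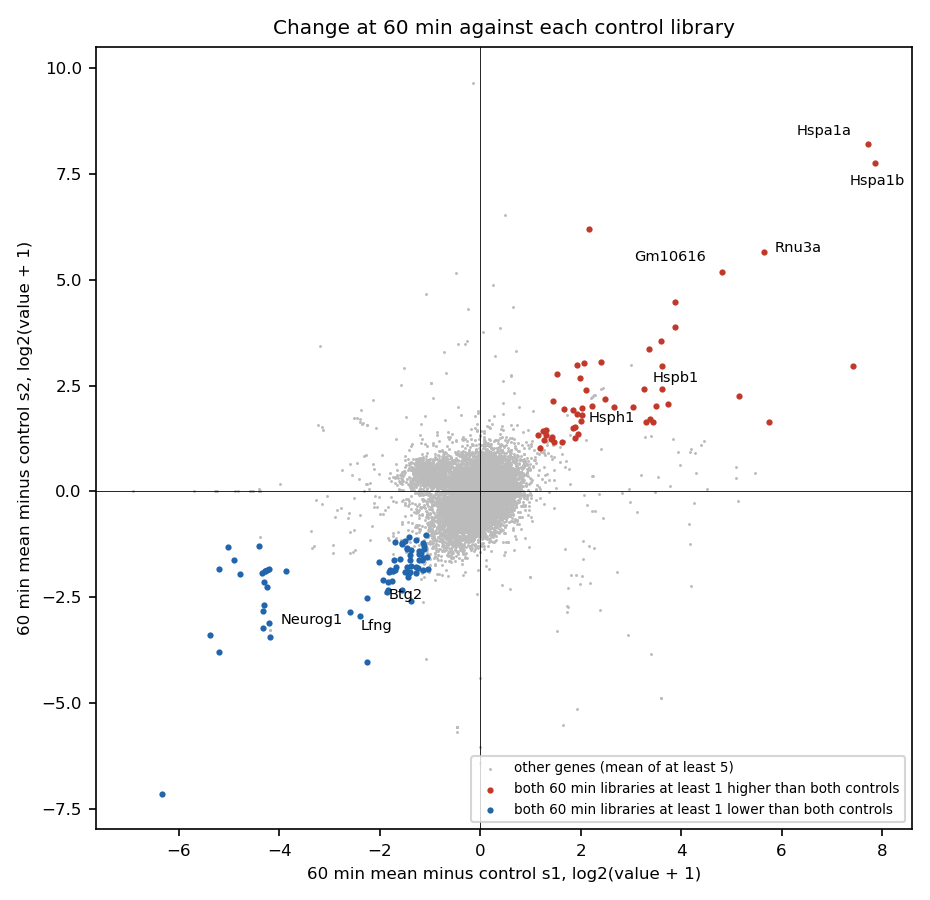
Mean of the 60 min libraries minus control s1 (horizontal) and minus control s2 (vertical) on the log2(value + 1) scale for 12120 genes, 1 point a gene, with the 51 genes at least 1 higher than both controls in red and the 74 at least 1 lower in blue. Hspa1a and Hspa1b stand alone at the top right, and many grey points lie far from 0 on 1 axis only.

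The inducible Hsp70 genes had the largest differences of all protein-coding genes in the set. Hspa1b (ENSMUSG00000090877) was at 1.82 and 1.996 in the controls and at 674 and 632 at 60 min, and Hspa1a (ENSMUSG00000091971) at 2.59 and 1.53 in the controls and at 794 and 713 at 60 min. Both rose, by 7.81 ± 0.22 (SE) and 7.96 ± 0.28 (SE) on the log2 scale (limma adjusted p = 0.000272 and 0.00066), and the heated libraries lay above the controls by a wide gap. At 15 min Hspa1b stood at 6.18 and 4.25 and Hspa1a at 4.92 and 2.87, both pairs above their controls by far less than at 60 min. The copies are nearly identical, so reads can be divided between them, and their summed signal was 4.40 and 3.53 in control, 11.1 and 7.12 at 15 min and 1468 and 1345 at 60 min. Hsph1, the Hsp110 that exchanges the nucleotide of Hsp70, was at 76.0 and 93.7 in control and at 396 and 469.6 at 60 min, with no overlap. It rose by 2.34 ± 0.20 (SE) (adjusted p = 0.0444).

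Promoters of 6 heat shock genes at least 1 apart higher are shown because they carry the letters that heat shock factors are known to bind, inverted repeats of GAA. Each window runs from 250 bases before to 50 bases after the RefSeq start (build GRCm38.p6) on the gene's strand, and capitals mark every match of GAANNTTC or TTCNNGAA, which overlap when the repeats follow each other.
Hspa1a, chr17:34972107-34972406, minus strand: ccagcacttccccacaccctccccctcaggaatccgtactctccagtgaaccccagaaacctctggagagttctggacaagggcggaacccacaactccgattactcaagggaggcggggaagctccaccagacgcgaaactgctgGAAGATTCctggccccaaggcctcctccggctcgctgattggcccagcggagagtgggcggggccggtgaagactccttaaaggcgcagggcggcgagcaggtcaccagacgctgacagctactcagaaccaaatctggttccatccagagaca
Hspa1b, chr17:34959189-34959488, minus strand: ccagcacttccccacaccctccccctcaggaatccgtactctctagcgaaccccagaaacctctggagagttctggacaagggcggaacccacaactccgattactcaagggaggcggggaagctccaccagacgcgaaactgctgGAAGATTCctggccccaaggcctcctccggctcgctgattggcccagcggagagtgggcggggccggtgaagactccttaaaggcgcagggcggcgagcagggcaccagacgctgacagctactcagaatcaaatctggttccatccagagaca
Hspb1, chr5:135887669-135887968, plus strand: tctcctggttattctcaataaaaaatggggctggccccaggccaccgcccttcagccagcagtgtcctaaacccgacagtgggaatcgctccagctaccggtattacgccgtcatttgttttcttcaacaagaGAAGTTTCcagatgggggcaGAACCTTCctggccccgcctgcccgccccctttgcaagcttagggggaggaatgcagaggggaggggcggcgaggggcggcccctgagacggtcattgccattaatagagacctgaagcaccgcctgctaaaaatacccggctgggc
Hsph1, chr5:149636287-149636586, minus strand: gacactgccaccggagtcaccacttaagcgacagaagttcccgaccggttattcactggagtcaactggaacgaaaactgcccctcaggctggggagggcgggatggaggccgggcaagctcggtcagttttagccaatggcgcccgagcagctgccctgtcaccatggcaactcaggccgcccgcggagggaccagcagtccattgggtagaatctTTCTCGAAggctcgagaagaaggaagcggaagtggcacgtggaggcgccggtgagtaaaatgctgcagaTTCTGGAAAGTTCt
Hspe1, chr1:55087898-55088197, plus strand: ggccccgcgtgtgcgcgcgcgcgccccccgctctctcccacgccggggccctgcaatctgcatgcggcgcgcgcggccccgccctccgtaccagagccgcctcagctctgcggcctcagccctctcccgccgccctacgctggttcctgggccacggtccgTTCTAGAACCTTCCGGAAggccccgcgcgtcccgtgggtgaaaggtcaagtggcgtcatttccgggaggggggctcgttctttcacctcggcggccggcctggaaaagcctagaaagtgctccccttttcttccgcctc
Dnaja4, chr9:54699309-54699608, plus strand: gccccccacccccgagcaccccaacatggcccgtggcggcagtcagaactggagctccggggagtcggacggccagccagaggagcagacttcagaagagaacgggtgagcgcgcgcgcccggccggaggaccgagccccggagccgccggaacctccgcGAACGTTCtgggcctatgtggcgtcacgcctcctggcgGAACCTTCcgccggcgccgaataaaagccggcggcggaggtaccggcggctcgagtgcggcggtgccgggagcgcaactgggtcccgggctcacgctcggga
The Hspa1a and Hspa1b windows differ at 4 of 300 positions, and both hold GAANNTTC 104 bases before the start. Hspe1 shares its region with Hspd1 on the opposite strand, and its window holds a 13-letter run on both strands, in which GAANNTTC is followed by any 2 letters and a further GAA, so that it overlaps the shorter motifs. The Hsph1 window holds the same run after the start.

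RefSeq windows were matched by symbol for 8538 genes of the set. Searched on both strands, GAANNTTC was in 7.86% of all 32851 starts, in 6.77% of the matched genes, in 6 of the 10 matched protein-coding genes at least 1 apart higher (60%) and in 0 of 28 at least 1 apart lower. TTCNNGAA was in 8.52% of starts, 8.06% of matched genes, 20% of the higher genes and 7.14% of the lower ones. The 13-letter run was in 0.603% of starts, 0.586% of matched genes, 20% of the higher genes and 0 of the lower ones. Over 7 lists of heat shock genes 87 of 107 members were matched, and GAANNTTC was in 33.3% of the 42 with no overlap upward and in 11.1% of the other 45. The other 4 matched higher genes, Acrbp, Gm4737, Kank3 and Rgs2, held neither GAANNTTC nor TTCNNGAA. Hspa1a and Hspa1b, whose windows are nearly alike, are counted separately here, as are Hspe1 and Hspd1, which share their region. Such matches are not independent. The 6 higher genes with GAANNTTC are the heat shock genes printed above. Hspa1a, Hspa1b and Dnaja4 were under 5 in both controls and are in the set only through their 60 min values, so the 60% is a description and no test. A match is only a run of letters. Hsp90aa1, Hspa8, Uspl1, Hist1h4n and Ccdc117 were not matched.

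The rest of the Hsp70 family differed less. Of 12 listed Hsp70 and Hsp110 genes, counted with Hspa1a, Hspa1b and Hsph1, 9 were in the set. Groups did not overlap upward in 6 and downward in 0, and the median change was 0.47 against −0.06 for the set. The 3 that rose were Hspa1a, Hspa1b and Hsph1, which are also among the 6, and no other member passed the test. Against control s1 alone the median was 0.69 and against control s2 alone 0.47. Hspa8, the constitutive Hsp70 that also uncoats clathrin vesicles, was at 1030.1 and 1149.6 in control and 2331 and 2386 at 60 min, a log2 difference of 1.12 ± 0.21 (SE) that did not pass (adjusted p = 0.277). Its heated libraries were both above both controls, as were those at 15 min, at 1779 and 1576. Hspa4, another Hsp110, had 157 and 158 in control and 238 and 200.4 at 60 min, again without overlap. Hspa12a, a distant member of the family, had 10.6 and 15.1 in control and 8.36 and 17.1 at 60 min, which overlapped.

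Small heat shock proteins, which hold unfolded proteins without using ATP, were represented by Hspb1, which encodes Hsp27. It was at 5.56 and 10.7 in the controls and at 62.0 and 61.4 after 60 min, with 15 min values of 6.98 and 7.41 inside the control range. The difference was 2.84 ± 0.29 (SE) (adjusted p = 0.0791), short of the threshold, and the heated pair was well above both controls. Of 10 listed genes 4 were in the set, and Hspb1 alone of them had groups that did not overlap.

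Hsp90 and its helpers stood above the controls as a list. All 20 listed genes were in the set, 13 had groups that did not overlap upward and 0 downward, the median was 0.45, and 0 passed the test. With median-of-ratios factors over all genes the counts were also 13 and 0. Hsp90aa1, the heat-inducible cytosolic Hsp90, had 932 and 819.5 in control and 2290.0 and 2139 at 60 min. Its distance between groups was at least 1, and the difference was 1.34 ± 0.23 (SE) (adjusted p = 0.246). Hsp90ab1, the constitutive form, had 1992 and 2015 in control and 3304 and 2598 at 60 min, a smaller gap in which the lower heated library was still above both controls.

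Among the co-chaperones of Hsp90, the same order of libraries held for those farthest from the controls. Stip1, which links Hsp70 to Hsp90, was at 141 and 139.6 in control and 227 and 199 at 60 min. Chordc1, a zinc-binding partner of Hsp90, was at 59.0 and 72.5 in control and 102 and 116 at 60 min. Cacybp, which takes part in the ubiquitin ligation of beta-catenin, was at 96.1 and 113 in control and 180.0 and 180.0 at 60 min, with 15 min values of 154 and 165. In all of these both heated libraries were above both controls.

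Hsp40 genes went both ways. Of 18 genes, all in the set, 5 had groups that did not overlap upward and 6 downward, and the median was 0.13. The counts were 7 and 1 with median-of-ratios factors over all genes. Dnaja4 was farthest up, at 2.58 and 2.27 in control and 8.17 and 7.61 at 60 min, a difference of 1.38 ± 0.25 (SE) (adjusted p = 0.275). Dnajb1, the main Hsp40 of the heat shock response, had 12.8 and 20.7 in control and 27.7 and 32.4 at 60 min. Dnaja1 had 591 and 347 in control and 964 and 738 at 60 min. In each of these 3 the heated pair lay above the controls. Dnajc21, which acts in ribosome maturation, was at 24.2 and 19.6 in control and 14.96 and 11.1 at 60 min. Dnajb5 was at 26.7 and 37.2 in control and 21.5 and 20.7 at 60 min, so in both the heated pair was below.

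Chaperonins and mitochondrial chaperones were higher in 12 of 17 genes without overlap and lower in 0, with a median of 0.32. With median-of-ratios factors over all genes, 5 of the 17 did not overlap. Hspe1, the mitochondrial Hsp10 lid, was at 177 and 202 in control and 509.8 and 442 at 60 min, with 283 and 235 at 15 min, and the groups were at least 1 apart (difference 1.33 ± 0.20 (SE), adjusted p = 0.178). Its partner Hspd1, the Hsp60 barrel, was at 293 and 201 in control and 463 and 339.7 at 60 min, a narrower gap over a wider control spread. Cct5 and Cct6a, subunits of the cytosolic chaperonin TRiC, did not overlap either. Cct5 was at 344 and 354 in control and 536 and 457 at 60 min. Cct6a was at 214 and 269 in control and 329.8 and 321 at 60 min.

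The regulators of the response differed little. Hsf1, the main heat shock factor, was at 22.8 and 32.3 in control and 24.96 and 26.4 at 60 min. Hsf2 was at 24.8 and 39.2 in control and 31.0 and 39.1 at 60 min, so both overlapped. Bag3, a co-chaperone that carries clients to autophagy, had 5.73 and 7.08 in control and 10.1 and 9.77 at 60 min, without overlap (adjusted p = 0.56). In the list of heat shock factors, BAG proteins and other genes known from heat, 22 of 24 were in the set, 8 did not overlap upward and 3 downward.

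That list holds genes at both ends. Rgs2, which switches off G-protein signals, was at 15.2 and 19.1 in control and 40.0 and 48.4 at 60 min, at least 1 apart (adjusted p = 0.189). Gadd45b, a growth arrest gene, was at 4.31 and 5.80 in control and 9.27 and 11.5 at 60 min. Serpinh1, the collagen chaperone Hsp47, was at 157 and 174 in control and 328 and 249 at 60 min. All 3 had heated values above both controls. Ier5, an immediate early gene known from human cells to assist heat shock factor 1, was at 35.3 and 59.5 in control and 15.95 and 18.6 at 60 min, with both heated libraries below both controls.

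**Figure D2:**
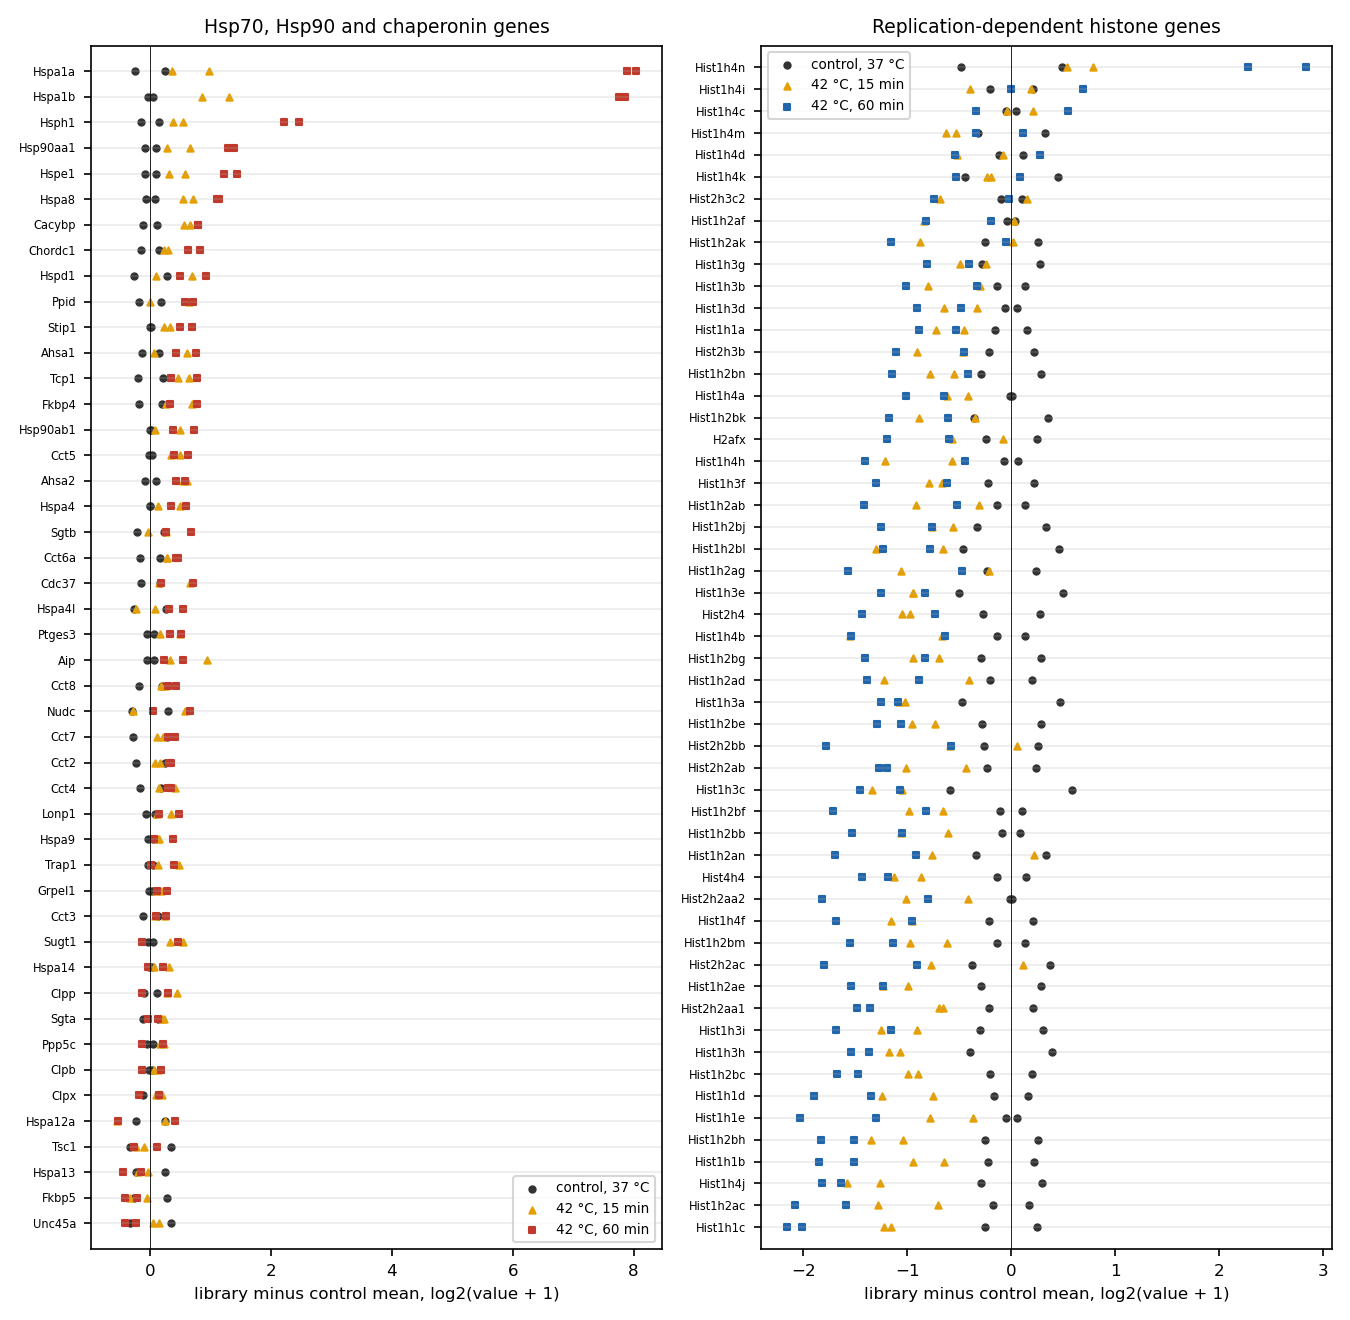
Each library's log2(value + 1) minus the mean of the controls for 46 Hsp70, Hsp90 and chaperonin genes (left) and 54 replication-dependent histone genes (right), sorted by the 60 min difference; circles are control, triangles 15 min and squares 60 min, 2 libraries each. The heated squares of Hspa1a and Hspa1b lie near 8 while most other chaperones lie under 1, and among the histones Hist1h4n alone lies above 2.

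Proteasome genes were modestly higher. Of 34 proteasome subunits and assembly factors, all in the set, 17 did not overlap upward and 1 downward, with a median of 0.24. The counts were 12 and 0 with median-of-ratios factors over all genes. The median was already 0.25 at 15 min. Psmb7, a catalytic core subunit, had 181 and 201 in control and 259 and 259 at 60 min. Among 18 ubiquitin genes and shuttle factors 7 did not overlap upward and 1 downward, but 3 and 0 with those factors, and 16.7% upward is then near the 15.0% of the set. The polyubiquitin gene Ubb had 1214 and 1208 in control and 1995 and 1699.7 at 60 min, without overlap.

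Outside the chaperones, a histone and genes of other functions were among the 15 protein-coding genes farthest above both controls. Uspl1, a SUMO protease of Cajal bodies, was at 21.4 and 27.7 in control, 23.9 and 22.6 at 15 min and 79.3 and 101 at 60 min. The 15 min pair lay within the controls and the 60 min pair far above (difference 1.84 ± 0.22 (SE), adjusted p = 0.104). In the GENCODE annotation of GRCm38, Uspl1 and its upstream neighbour Gm43332, a long non-coding RNA, overlap Hmgb1 on the opposite strand. Gm43332 was at 2.41 and 1.77 in control and 13.8 and 13.4 at 60 min. Hmgb1, a chromatin protein, was at 1048 and 411 in control and 1523 and 802 at 60 min, which overlapped. The use of strand in counting is not given, so reads of these genes may not be separable.

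Acrbp, a protein of the sperm acrosome, was at 4.04 and 6.58 in control and 18.02 and 18.9 at 60 min. Kank3, a cytoskeletal adaptor, was at 5.58 and 5.57 in control and 14.55 and 16.3 at 60 min. Ccdc117 was at 8.97 and 12.8 in control and 29.1 and 30.8 at 60 min. Ccdc63, a coiled-coil protein of sperm flagella, was at 4.79 and 1.45 in control and 19.8 and 12.3 at 60 min. The heated values were above both controls in all 4, with adjusted p from 0.178 to 0.358. Hist1h4n, an H4 histone, was at 26.0 and 12.8 in control, 32.3 and 26.9 at 15 min and 137 and 92.8 at 60 min, the reverse of most histones. Copies of H4 are alike in their coding sequence, so its level is uncertain. Gm4737 was at 0.216 and 2.84 in control, with 15 min values of 17.0 and 11.5 as high as the 60 min ones of 14.67 and 8.24. Gm10382, which overlaps another gene on the opposite strand, was at 3.10 and 3.50 in control and 10.1 and 9.88 at 60 min.

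**Figure D3:**
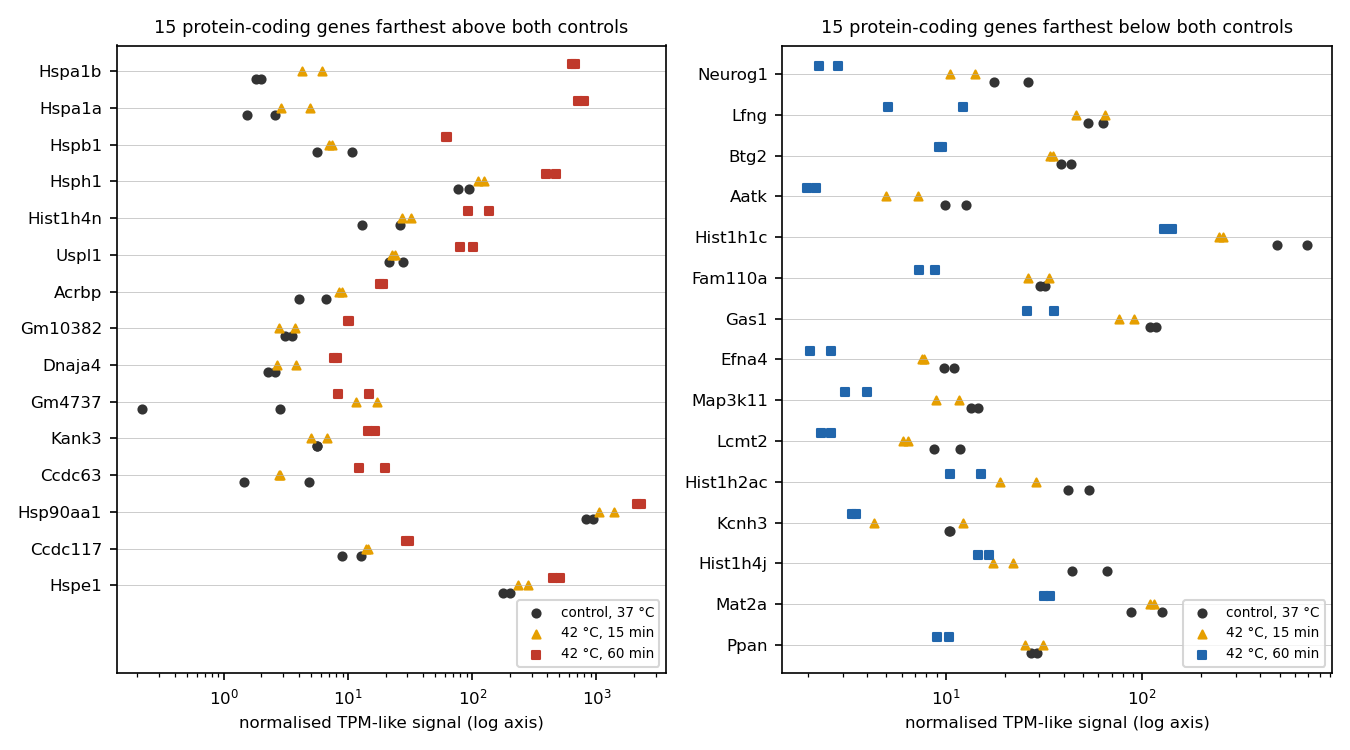
Normalised signal on a log axis in every library for the 15 protein-coding genes farthest above both controls (left) and farthest below both (right), ordered by the smallest difference between a heated and a control library; circles are control, triangles 15 min and squares 60 min. For most genes above the controls the 15 min triangles lie near the control circles, while Gm4737 is already at its 60 min level at 15 min.

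Transcripts of cortical neurogenesis were lower after 60 min. Btg2, an antiproliferative gene of progenitors about to form neurons, was at 38.8 and 43.6 in control, 35.2 and 34.0 at 15 min and 9.59 and 9.21 at 60 min, and it fell by 2.02 on the log2 scale (SE 0.18, adjusted p = 0.0453). Both heated libraries were far below both controls. Neurog1, a proneural factor that starts neuronal differentiation, was the protein-coding gene farthest below both controls, at 17.7 and 26.3 in control, 10.5 and 14.2 at 15 min and 2.83 and 2.29 at 60 min (difference −2.67 ± 0.28 (SE), adjusted p = 0.0791). Its relative Neurog2 was at 161 and 266 in control and 72.2 and 71.9 at 60 min. Eomes, the factor of intermediate progenitors, was at 89.9 and 102 in control and 45.8 and 40.6 at 60 min. None of these 3 passed the test, and in each the heated pair lay below both controls.

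Of 22 proneural and neurogenic factors 18 were in the set, 0 did not overlap upward and 11 downward, with a median of −0.73. The median was −0.48 against control s1, −0.97 against control s2 and −0.54 with median-of-ratios factors over all genes. With those factors 4 did not overlap downward (22.2%, against 5.22% over the set). The sums of the progenitor and radial glia markers given above overlapped between the groups, but Vim made up a large part of them. Of these 19 genes 4 did not overlap upward (21.1%) and 6 downward (31.6%), against 16.4% and 20.4% over the set. Their median change was −0.11, and by mean change 7 were higher and 12 lower. Vim, an intermediate filament of radial glia, was at 1413 and 1786 in control and 2180.0 and 1945 at 60 min, above both controls. Pax6, a radial glia factor, was at 207 and 150.1 in control and 162 and 125 at 60 min, which overlapped. The part of progenitor number in the lower factors was not tested.

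Transcripts of several ligands and modifiers of Notch signalling, which keeps progenitors from differentiating, were lower. Signalling itself was not measured. Lfng, which adds sugars to Notch receptors, was at 53.1 and 63.4 in control, 64.7 and 45.9 at 15 min and 12.3 and 5.08 at 60 min (difference −2.71 ± 0.39 (SE), adjusted p = 0.164). Dll1, a Notch ligand of newborn neurons, was at 76.6 and 104 in control and 36.2 and 32.8 at 60 min, and the receptor Notch1 at 59.0 and 112 in control and 41.4 and 42.3 at 60 min. Heated values were below both controls in all 3. Hey1, a target of Notch, went the other way at 69.7 and 67.4 in control and 97.6 and 80.8 at 60 min. Hes1 of the same list was below both controls, at 33.1 and 50.6 in control and 27.5 and 19.5 at 60 min. Nrarp was below them too, at 14.4 and 13.4 in control and 10.9 and 6.83 at 60 min, while Hes5 overlapped. Of 20 genes in the set 1 did not overlap upward (5%) and 9 downward (45%, against 20.4% over the set), with a median of −0.39. With median-of-ratios factors over all genes the counts were 1 and 3 (15% downward, against 5.22% over the set).

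Other regulators of progenitors were lower too. Gas1, a co-receptor for hedgehog, was at 110.0 and 118 in control and 35.8 and 26.0 at 60 min (difference −1.86 ± 0.22 (SE), adjusted p = 0.104). Of 10 hedgehog genes 6 did not overlap downward (60%) and 0 upward, and 2 (20%) and 0 with median-of-ratios factors over all genes. Id4, an inhibitor of proneural factors, was at 123 and 113 in control and 50.2 and 38.7 at 60 min. Id2 was at 166 and 195 in control and 103 and 99.5 at 60 min. In the list of ID, BMP and TGF-beta feedback genes 8 of 13 did not overlap downward (61.5%) and 0 upward, and 3 (23.1%) and 0 with those factors. Sox2, a stem cell factor, was at 142 and 128 in control and 77.7 and 62.8 at 60 min. Sox21, a repressor of the same family, was at 41.6 and 71.1, lower at 15 min with 38.3 and 37.2, and at 96.2 and 90.8 at 60 min. Of 12 SOX genes 2 did not overlap upward (16.7%, near the 16.4% of the set) and 6 downward (50%, against 20.4%). With those factors 2 did so in each direction (16.7%), against 15.0% upward and 5.22% downward over the set.

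Factors of cortical layers were not lower as a list. Of 23 genes 6 did not overlap upward and 6 downward, with a median of −0.06, equal to that of the set, and 5 and 0 with median-of-ratios factors over all genes. Mef2c, an activity-linked neuronal factor, was at 25.5 and 24.6 in control and 33.6 and 35.4 at 60 min. Lmo4, a LIM-only factor, was at 129 and 157 in control and 234 and 201 at 60 min, both above the controls. Pou3f2 and Pou3f3, factors of upper layers, were both below. Pou3f2 was at 15.7 and 18.4 in control and 11.3 and 10.9 at 60 min. Pou3f3 was at 84.5 and 98.5 in control and 65.3 and 57.98 at 60 min.

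Replication-dependent histones, whose messages end in a stem-loop instead of a poly(A) tail, were the list farthest below the controls. Of 54 genes in the set 46 did not overlap downward and 1 upward, 11 were at least 1 apart lower, 0 passed the test and the median was −1.11. The median was −0.92 against control s1 and −1.32 against control s2, and with median-of-ratios factors over all genes 29 did not overlap downward. Hist1h1c, a linker histone, was at 486 and 690.0 in control, 247 and 259 at 15 min and 143 and 129 at 60 min (adjusted p = 0.0909). The linker histone Hist1h1b was at 687 and 932 in control and 279.7 and 220.5 at 60 min. Hist1h2ac, an H2A gene, was at 53.95 and 42.2 in control, 28.9 and 18.98 at 15 min and 15.1 and 10.5 at 60 min. The heated values of all 3 were below both controls, and the 15 min values lay between.

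The summed signal of the list was 27416 and 35050.1 in control, 22805 and 17905 at 15 min and 22249 and 14364 at 60 min. The 60 min sums did not overlap the control sums but overlapped those at 15 min, and 60 min s1 was well above 60 min s2. At 15 min the list median was already −0.72. The H4 genes counted as lower are as uncertain in level as Hist1h4n. Histones made for use outside replication, which carry poly(A) tails, had 4 of 10 genes without overlap upward and 1 downward (2 and 1 with median-of-ratios factors over all genes). H2afv was at 377 and 397 in control and 618 and 467 at 60 min, and the exception was H1f0, a linker histone of resting cells, at 276 and 249 in control and 179 and 109.9 at 60 min. Cell cycle and mitosis genes had 3 of 47 without overlap upward (6.38%) and 6 downward (12.8%), both shares below those of the set. The counts turned to 6 and 3 with median-of-ratios factors over all genes and the median went from −0.06 to 0.14. Among them E2f1, which drives entry to S phase, was at 23.3 and 21.3 in control and 13.9 and 10.1 at 60 min.

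Genes of metabolism, signalling and ribosome assembly were also among the 15 protein-coding genes farthest below both controls. Mat2a, which makes the methyl donor S-adenosylmethionine, was at 87.6 and 126 in control, 109 and 115 at 15 min and 31.5 and 34.0 at 60 min (difference −1.65 ± 0.22 (SE), adjusted p = 0.148). Ppan, a factor of ribosome assembly, was at 27.3 and 29.2 in control, 31.5 and 25.5 at 15 min and 9.06 and 10.4 at 60 min. Fam110a, a centrosome-associated protein, was at 30.2 and 31.9 in control, 33.5 and 26.4 at 15 min and 8.84 and 7.31 at 60 min. In these the 15 min values stayed near control and the 60 min pair was below. Aatk, a kinase of neurons, was at 9.97 and 12.7 in control and 1.99 and 2.20 at 60 min. Efna4, an ephrin, was at 9.81 and 11.1 in control and 2.62 and 2.04 at 60 min. Map3k11, a kinase upstream of JNK, was at 13.5 and 14.65 in control and 3.08 and 3.997 at 60 min. Lcmt2, a tRNA-modifying enzyme, was at 8.72 and 11.9 in control and 2.32 and 2.61 at 60 min. Kcnh3, a potassium channel, was at 10.5 and 10.6 in control and 3.50 and 3.36 at 60 min. Hist1h4j was at 44.0 and 66.5 in control and 16.7 and 14.55 at 60 min.

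Stress programmes other than the heat shock response were mostly level or lower. Among p53 targets 21 were in the set, Btg2 fell, 2 did not overlap upward (9.52%) and 9 downward (42.9%), and the median was −0.26. Over the set the shares were 16.4% and 20.4%. Under median-of-ratios factors over all genes the counts were 2 and 3 (14.3% downward, against 5.22% over the set). Bbc3, which encodes the cell death protein PUMA, was at 20.4 and 24.1 in control and 8.35 and 6.06 at 60 min. Sesn1, a sestrin, was at 29.8 and 34.1 in control and 17.3 and 17.99 at 60 min, both below the controls. Mdm2, which degrades p53, was at 67.8 and 86.6 in control and 90.8 and 100.4 at 60 min, above them. Of 18 regulators of the integrated stress response 1 did not overlap upward (5.56%) and 6 downward (33.3%), with a median of −0.20. With those factors the counts were 1 and 2 (11.1% downward). Trib3, a pseudokinase induced by ATF4, was at 19.7 and 47.2 in control and 7.68 and 6.41 at 60 min. Ddit3, which encodes CHOP, was at 98.8 and 125 in control and 71.3 and 64.1 at 60 min. Ddit4, an inhibitor of mTORC1, was at 138 and 248 in control and 81.9 and 101 at 60 min. Cebpg, a partner of ATF4, was at 124 and 134 in control and 229.8 and 226 at 60 min, above both controls. Atf4 was at 299 and 521 in control and 360.1 and 370.1 at 60 min, which overlapped.

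Genes of the endoplasmic reticulum were found on both sides. Of 25 in the set 6 did not overlap upward (24%) and 7 downward (28%), against 16.4% and 20.4% over the set. Folding and disposal genes were among both. Canx, which folds glycoproteins, was at 340.3 and 338 in control and 475 and 434 at 60 min. Pdia3, a disulfide isomerase, was at 97.4 and 113 in control and 147 and 135 at 60 min. Edem1, which marks glycoproteins for disposal, was also above both controls, at 20.2 and 26.2 in control and 27.8 and 30.0 at 60 min. Below both controls was Hspa5, the main Hsp70 of the reticulum, at 149 and 249 in control and 122 and 146 at 60 min. Syvn1, a ubiquitin ligase of disposal, was at 14.02 and 18.9 in control and 9.04 and 9.29 at 60 min. Herpud1 was at 59.7 and 113 in control and 33.6 and 48.1 at 60 min. The counts were 4 and 0 with median-of-ratios factors over all genes, and 16% upward is then near the 15.0% of the set. NRF2 antioxidant genes had 2 of 16 upward (12.5%) and 7 downward (43.8%), against 16.4% and 20.4% over the set. With those factors they had 0 and 2 (12.5% downward, against 5.22% over the set). Nfe2l2, which encodes NRF2, was at 14.2 and 13.5 in control and 9.71 and 7.75 at 60 min.

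Early response genes differed by member. Jun, an AP-1 subunit, was at 69.01 and 118 in control, 76.1 and 85.6 at 15 min and 207 and 227 at 60 min, above both controls (difference 1.26 ± 0.28 (SE), adjusted p = 0.367). It was the 1 gene of 9 AP-1 genes whose groups did not overlap. Fos was at 23.4 and 55.9 in control and 37.8 and 57.3 at 60 min. Of 28 other immediate early genes 4 did not overlap upward (14.3%) and 10 downward (35.7%). Under median-of-ratios factors over all genes 3 did so in each direction (10.7%), against 15.0% upward and 5.22% downward over the set. Npas4, a factor of neuronal activity, was at 2.25 and 3.73 in control and 6.34 and 11.96 at 60 min, above the controls. Egr1 was at 34.6 and 60.1 in control and 54.1 and 50.1 at 60 min, within them. Kruppel-like factors split, with Klf6 at 46.1 and 100.4 in control and 128 and 175 at 60 min. Klf11 was at 6.98 and 13.3 in control and 2.80 and 3.83 at 60 min. Nfkbiz, which modulates NF-kB, was at 7.97 and 9.65 in control and 3.34 and 2.92 at 60 min. Of 13 genes of NF-kB and cytokine feedback 5 did not overlap downward (38.5%) and 0 upward, and 3 (23.1%) and 0 with those factors. Ciart, a repressor of the clock, was at 11.5 and 8.85 in control and 3.69 and 3.63 at 60 min, below both controls. In all 4 of 15 clock genes were below both (26.7%, against 20.4% over the set), and 2 with those factors.

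Genes of the translation machinery were slightly above the controls as lists, with 0 members past the test. They were already so at 15 min against the same controls. The 15 min medians were 0.34 for ribosomal proteins, 0.26 for initiation factors and 0.24 for elongation and termination factors. At 60 min these medians were 0.40, 0.25 and 0.24. Over the set the median was 0.058 at 15 min and −0.057 at 60 min. All 79 cytosolic ribosomal protein genes were in the set, 49 did not overlap upward and 0 downward, and the median was 0.40, being 0.51 against control s1 and 0.23 against control s2. With median-of-ratios factors over all genes 31 did not overlap upward. Rpl38 was at 775 and 784 in control and 1277 and 1238 at 60 min, but already at 1503 and 1187 at 15 min. Rps19 was at 1836 and 1789 in control and 3154 and 2627 at 60 min. Initiation factors had 22 of 43 upward and 1 downward, with Eif1b at 184 and 195 in control and 346 and 265 at 60 min. Pabpc1, which binds poly(A) tails, was at 516 and 538 in control and 832 and 691 at 60 min. Eif4ebp2, a repressor of cap binding, was the 1 downward, at 61.4 and 76.0 in control and 55.6 and 48.5 at 60 min.

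Elongation and termination factors had 13 of 27 upward and 1 downward. Eef1a1, which brings aminoacyl-tRNA to the ribosome, was at 4275 and 3787 in control and 7048 and 5729.6 at 60 min. Eef2k, the kinase that halts elongation, was at 32.9 and 25.2 in control and 33.8 and 34.4 at 60 min, a small gap. The 1 downward was Gtpbp2, which rescues stalled ribosomes, at 65.3 and 66.4 in control and 40.1 and 35.9 at 60 min. Aminoacyl-tRNA synthetases had 10 of 22 upward and 0 downward (8 and 0 with median-of-ratios factors over all genes). Nuclear subunits of oxidative phosphorylation had 21 of 55 upward and 1 downward, with Ndufs3 at 99.5 and 108 in control and 137 and 141 at 60 min. Their median was 0.37 at 15 min and 0.26 at 60 min. The 13 mitochondrially encoded messages had 0 upward and 2 downward (15.4%, below the 20.4% of the set). Their median had opposite signs against the controls, at −0.54 against s1 and 0.12 against s2.

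RNA processing genes held some of the wider gaps. Of 35 SR and hnRNP splicing factors 12 did not overlap upward and 2 downward, with Tra2a, a splicing activator, at 112 and 87.1 in control and 193 and 152 at 60 min, and Srsf5, an SR protein, below the controls at 483 and 437 in control and 343 and 267 at 60 min. Clk4, a kinase of SR proteins, was at 66.4 and 70.7 in control and 171 and 117 at 60 min. Dyrk1b, a kinase of the same superfamily, was at 14.6 and 28.1 in control and 7.57 and 5.97 at 60 min. The groups did not overlap in any of these 4. Of the cold-inducible proteins, whose genes respond to temperature in the other direction, Rbm3 was at 206 and 266 in control and 205 and 181 at 60 min, with a distance between groups of 0.0090 on the log2 scale. Cirbp was at 175 and 168 in control and 214 and 136 at 60 min, with 15 min values of 294 and 229. Tubulin genes had 3 of 13 downward (23.1%, near the 20.4% of the set) and 0 upward, and 1 and 0 with median-of-ratios factors over all genes, with Tuba4a at 24.7 and 40.0 in control and 8.65 and 11.9 at 60 min. Actb, a cytoskeletal actin, was at 4479.9 and 5158 in control and 6544 and 5588 at 60 min.

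**Figure D4:**
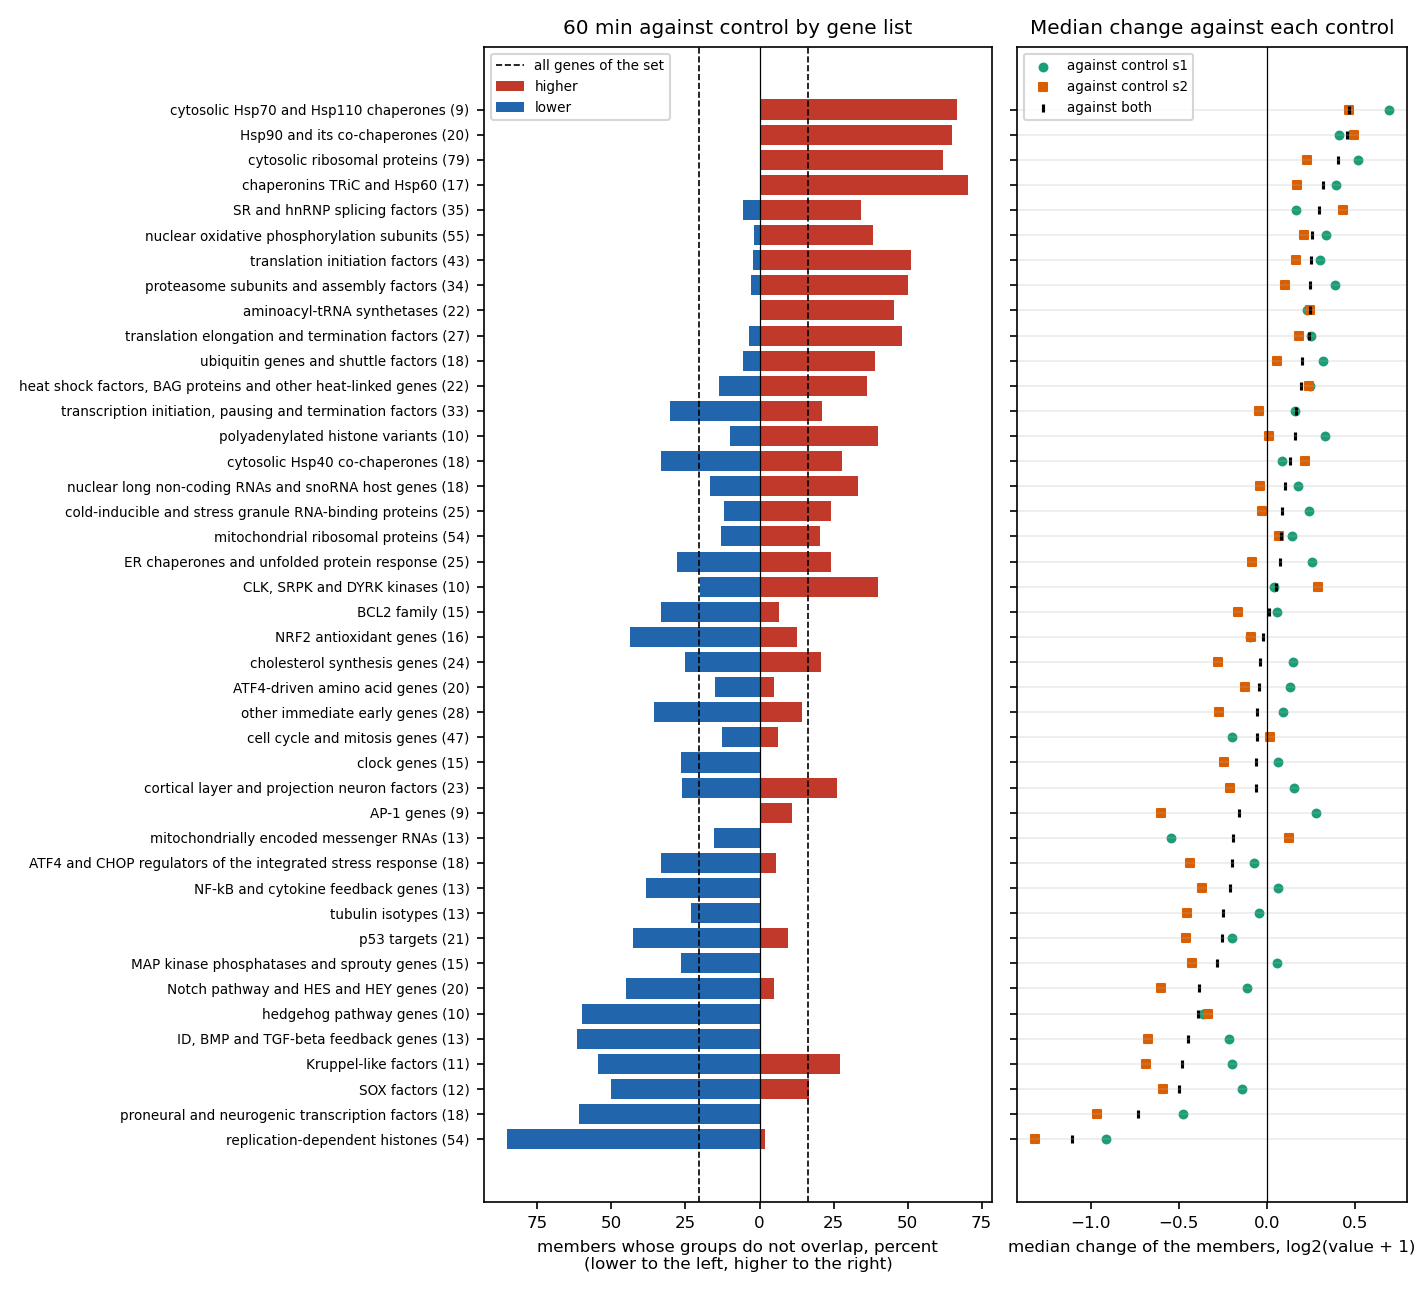
For lists with at least 9 genes in the set (number in parentheses), the percent of genes whose heated and control libraries do not overlap, higher to the right and lower to the left (left panel, dashed lines at 16.4% and 20.4% for the whole set), and the median log2 change against each control and against both (right panel). Chaperone and ribosomal protein lists lie at the top, histones and neurogenic factors at the bottom, and for most lower lists the median is farther below 0 against control s2 than against control s1.

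Genes that do not code for protein made up a larger share of the genes at least 1 apart than of the set. Protein-coding genes were 85.5% of the set, and they gave 18 of the 51 higher genes and 44 of the 74 lower ones. Pseudogenes, of which 487 were in the set, gave 14 and 8, the 815 long non-coding RNAs 7 and 6, and the 91 small or structural RNAs 4 and 10. Low values and near-identical copies make such values uncertain. Miat, a nuclear long non-coding RNA of neurons, was at 71.4 and 123 in control and 23.1 and 23.9 at 60 min. Snhg12, a host of small nucleolar RNAs, was at 35.1 and 41.3 in control and 87.6 and 69.7 at 60 min, on opposite sides of the controls. Malat1, an abundant nuclear RNA, was at 1149.6 and 1317 in control and 1347 and 1485 at 60 min, with 15 min values of 3873 and 3371 above both.

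Many small RNAs were listed at 0 in one of the groups. Rnu3a, a copy of the U3 RNA that guides ribosomal RNA cleavage, was listed at 0 in both controls and both 15 min libraries and at 41.4 and 58.9 at 60 min, and it rose (adjusted p = 0.00355). Snora57, a guide for pseudouridine, was at 45.4 and 54.5 in control, 22.9 and 28.4 at 15 min and 8.5001 and 8.88 at 60 min, and it fell by 2.39 on the log2 scale (SE 0.21, adjusted p = 0.0444). The gene without a symbol that fell was at 79.3 and 140.2 in control and listed at 0 in both heated libraries. Of the other classes the 5 genes farthest below the controls, Mir3473g, Gm24616, Snora31, Gm24771 and the pseudogene AC102135.1, were all listed at 0 at 60 min, with control values from 6.16 to 35.6. In each of them control s1 was higher than control s2. Gm22884, listed at 0 in control, was at 18.95 and 9.88 at 60 min, and the pseudogene Rpl30-ps9 was at 0 and 0.0250 in control and 16.9 and 7.11 at 60 min.

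Neighbouring genes were compared within 10 kb in the GENCODE annotation of GRCm38. Of the 51 higher genes 31 had a neighbour of the set that close, 4 of them (12.9%) a neighbour at least 1 apart higher and 12 (38.7%) a neighbour without overlap upward. Over the 7048 genes of the set with such a neighbour the shares were 0.582% and 22.1%. For the 74 lower genes the numbers were 48, 6 (12.5%) and 23 (47.9%), against 0.908% and 27.3% over the set. Pairs are counted from both sides, so these genes are not independent. Gm48565, downstream of Hspa8 on its strand but farther away than that, was at 1.04 and 0.347 in control, 0.925 and 0.877 at 15 min and 22.0 and 38.1 at 60 min, and it rose by 4.18 ± 0.36 (SE) (adjusted p = 0.0444). Gm10616 was at 1.503 and 0.921 in control, 9.29 and 8.67 at 15 min and 86.0 and 55.3 at 60 min and rose by 5.00 ± 0.28 (SE) (adjusted p = 0.00446), while its neighbour on the opposite strand, the mitochondrial polymerase gene Polg, was at 74.3 and 76.2 in control and 44.7 and 42.5 at 60 min, without overlap downward. Gm19178, which lies across from Chordc1, was at 1.79 and 1.64 in control and 7.88 and 10.2 at 60 min. The antisense RNA 2700069I18Rik, across from the zinc-finger gene Zfhx4, was at 1.56 and 1.64 in control and 8.95 and 9.86 at 60 min. Zfhx4 itself was at 8.88 and 10.1 in control and 19.1 and 29.4 at 60 min. In the pairs with Hspa8, Chordc1 and Zfhx4 both genes were above both controls, and in the pair with Polg only Gm10616 was.

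Genes at least 1 apart were short and had few exons. The 10360 protein-coding genes had a median of 10 exons in their longest annotated model, and 2.15% had a single exon. The 44 lower genes had a median of 3 exons, with 13 single-exon genes (29.5%), and without the histones 33 genes had a median of 4 exons and 9.09% single-exon. The 18 higher genes had a median of 5 exons, with 27.8% single-exon. Median spans were 26441 bases for all protein-coding genes, 6962 for the lower and 6964 for the higher ones. Over all protein-coding genes with 1 exon the median change was −0.39, and −0.26 without histones, against −0.015 for those with 11 or more exons. Groups did not overlap downward in 49.3% of single-exon genes, 38.2% without histones, and in 19.8% of genes with 11 or more exons.

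Base composition went with the differences as well, and it also went with the difference between the controls. The GC content of the transcript had a median of 49.4% over all protein-coding genes, 55.6% in the lower 44 and 51.3% in the higher 18. From genes under 42% to genes of 58% or more, the median change went from 0.047 to −0.32, and the share without overlap downward from 12% to 42.7%. In the highest bin the median was −0.095 against control s1 and −0.53 against control s2, while control s1 minus control s2 was itself −0.46 and heated s1 minus heated s2 was 0.020. After centring within bins of GC content, a step chosen after seeing the data, 18.6% of the set did not overlap upward and 19.5% downward. The medians were then −0.95 for histones, −0.52 for neurogenic factors, 0.51 for Hsp90 genes and 0.46 for ribosomal proteins. The part of GC content in the lower genes was not tested further.

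**Figure D5:**
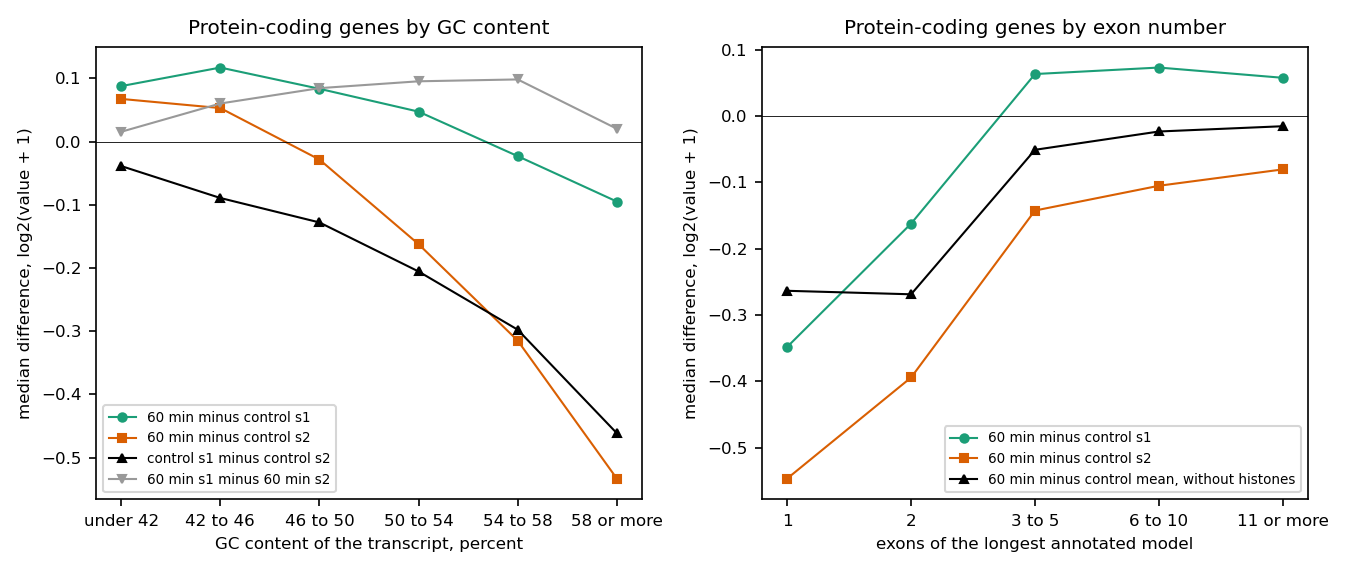
Median difference on the log2(value + 1) scale of protein-coding genes in bins of transcript GC content (left) and of exon number (right), for 60 min against each control and, on the left, between the libraries of a group. The line against control s2 and the line of control s1 minus control s2 both go down with GC content, to −0.53 and −0.46, while the line between the heated libraries stays between 0.015 and 0.098.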

How the data were processed

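Total RNA was measured in 6 libraries, 2 each from 60 min at 42 °C, 15 min at 42 °C and the 37 °C control. The authors deposited 1 table of normalised signal per gene. Its values resemble TPM, but the library totals ran from 892768 to 1056383, so a further factor per library had been applied and the values are treated as a signal on the authors' scale. The plan had assumed TPM, and the same test was kept. The submitters' processing notes name kallisto, sleuth and GRCm39, with versions not given in the sources used here. Read depth is unknown, so no counting interval can be given. Pseudo-alignment divides reads among near-identical copies. Table columns name a group and a suffix but no sample, so each column stands for an unnumbered library of its group.

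Values were used as log2(value + 1). limma 3.58.1 in R 4.3.3, with a mean-variance trend, used the 6 libraries together, with no term but group (3 residual degrees of freedom), over the 21954 genes whose mean reached 1, with Benjamini-Hochberg adjustment and two-sided tests. Calls are printed for the 12120 genes whose mean reached 5 in the 4 libraries compared. The fit was tested on simulated data. The text names every gene past the test, the 15 protein-coding and 5 other genes with a symbol that lay farthest from both controls in each direction, up to 4 members a list and direction by the same distance, and fixed heat shock, stress, translation and marker genes. Hspa4, Hspa12a, Hspa5, Edem1, Pax6, Mcl1, Rpph1 and the neighbours Hmgb1, Polg, Zfhx4, Gm19178, Gm43332 and 2700069I18Rik were named after their values were seen. Some genes that the rule names are not reported here. The members and the 54 gene lists were chosen with earlier results of these data known. Gene classes, exons, GC content and neighbours come from GENCODE on GRCm38, joined by gene identifier, while promoter windows come from RefSeq on GRCm38.p6. Alternatives covered scaling, the added constant, filters, the fit and each library left out.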

Additional observations from a re-analysis of the deposited data

How the results depend on the processing

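The test called 6 genes higher and 3 lower. The higher count was 13 with median-of-ratios factors over all genes and 2 in a fit of the 4 libraries compared, and it ran from 0 to 12 with each library left out. The lower count was 5 after rescaling without mitochondrially encoded and small RNA genes, and 1 with a constant of 5, with no filter or without the trend. It was 0 in the 4-library fit and ran from 0 to 27 with each library left out, where a lone library is assumed to vary like the other groups. The column suffix was not shown to pair the libraries, since the correlations of s1 minus s2 across genes (0.21 to 0.43) are a hint from the data and not from the design. A replicate block by suffix gave 5 higher and 3 lower and kept 7 of the 9 calls, while the genes of the set with an unadjusted p under 0.05 numbered 2224 with it and 1276 without. Groups at least 1 apart were 51 higher and 74 lower. A constant of 5 gave 26 and 36, and median-of-ratios factors over all genes gave 36 lower. Such factors over genes with a mean of at least 5 gave 53 and 81, and rescaling every library to the same total gave 50 and 92. The ranges with each library left out were 89 to 130 higher and 127 to 558 lower. A distance above 0 gave 1986 and 2470, a distance of about 1.5-fold 114 and 282, a mean of at least 1 gave 110 and 143, and a mean of at least 20 gave 18 and 31. Some small differences turned sign. With median-of-ratios factors over all genes Atf4 was at 0.087, Cirbp at 0.19, Hsf1 at 0.11, Ptbp1 at 0.019 and mt-Co3 at 0.10, and with such factors over genes with a mean of at least 5 Cirbp was at 0.0047. Centring within bins of GC content gave 0.061 for Atf4 and 0.049 for Cirbp. With each library left out, Atf4 ran from −0.51 to 0.29, Cirbp from −0.33 to 0.32, Egr1 from −0.20 to 0.57, Fos from −0.26 to 0.96, Hsf1 from −0.32 to 0.16 and Hsf2 from −0.17 to 0.47. The cause was not tested for any of these. Of the list medians computed under alternatives 539 moved by less than a yardstick and 55 by more. The yardstick was the SD of the 4 medians from single heated libraries minus single controls. The medians with a library left out draw on the same pairs, so the count says little about them. Read depth is unknown, so the precision of low values cannot be given.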

Other observations

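Among genes of RNA polymerase II initiation, pausing and termination, all 33 were in the set, 7 had groups that did not overlap upward (21.2%) and 10 downward (30.3%), and 0 passed the limma test. Over the set the shares were 16.4% and 20.4%. With median-of-ratios factors over all genes the counts were 5 and 0, and 15.2% upward is then near the 15.0% of the set. Hexim1, an inhibitor of the elongation kinase P-TEFb, was at 19.1 and 22.0 in control and 14.4 and 11.2 at 60 min, below both controls. Cstf1, a subunit of the cleavage stimulation factor, was at 23.1 and 28.8 in control and 18.6 and 16.4 at 60 min. Nelfcd, a subunit of the pausing factor NELF, was at 41.4 and 33.0 in control and 29.1 and 24.7 at 60 min. Polr2c, a polymerase subunit, was on the other side at 65.1 and 68.0 in control and 96.2 and 83.0 at 60 min.

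Cholesterol synthesis genes had 5 of 24 not overlapping upward (20.8%) and 6 downward (25%), near the shares of the set, and 1 and 0 with median-of-ratios factors over all genes. Ebp, a sterol isomerase, was at 7.68 and 9.21 in control and 13.4 and 12.1 at 60 min, above both. In the BCL2 family, which sets the threshold for cell death, 1 of 15 did not overlap upward and 5 downward (33.3%, against 20.4% over the set). With those factors the counts were 0 and 2 (13.3% downward, against 5.22% over the set). Bbc3 was the 1 member at least 1 apart. Mcl1, a survival member, was at 86.9 and 95.3 in control and 102 and 82.0 at 60 min, which overlapped. Values of some small RNAs lay far apart within a group: Rpph1, the RNA of ribonuclease P, was at 5245 and 13651 in control and 7034 and 7397 at 60 min.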
